A study of Mus musculus with 6 samples.

Results

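The 39 genes described here encode the enzymes that activate, oxidise, make, desaturate and elongate fatty acids. They were chosen by symbol from a list of fatty acid enzymes, with no fold change or p-value in the rule. The list and the roles were, however, drawn up with earlier results of these data known. All 39 were found among the 27179 genes of each of the authors' deposited tables. By role, 22 act in oxidation, 4 in activation, and 13 in synthesis, desaturation and elongation. Their RNA was sequenced in C2C12, an immortalised line of mouse myoblasts that fuse into myotubes in low serum. The cells stably carried an shRNA against BAF250A (the product of Arid1a and a subunit of BAF, one family of SWI/SNF chromatin remodelers), an shRNA against BRD9 (a subunit of the ncBAF family) or a scrambled shRNA. All 3 groups were harvested 48 h after the change to differentiation medium with horse serum and insulin, and each has 2 libraries. Each knockdown was compared with the same scrambled shRNA libraries, to ask what each family contributes while muscle cells differentiate. Whether a group was a pool or a clone, and how many shRNA sequences were used per target, was not given in the sources used here.

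Long-chain fatty acids enter metabolism once acyl-CoA synthetases have joined them to coenzyme A. For oxidation the acyl group crosses into mitochondria through the carnitine shuttle and is shortened by a spiral of dehydrogenation, hydration, dehydrogenation and thiolysis, whose first step hands electrons to the electron transfer flavoprotein. Synthesis runs in the cytosol, where ATP citrate lyase supplies acetyl-CoA, acetyl-CoA carboxylase makes malonyl-CoA and fatty acid synthase builds palmitate, which elongases and desaturases of the endoplasmic reticulum then modify. Malonyl-CoA also inhibits the entry step of oxidation, so in muscle the carboxylases and malonyl-CoA decarboxylase act on both sides. Synthesis genes are classical targets of the sterol regulatory element-binding proteins, and oxidation genes of muscle are classical targets of PPAR and oestrogen-related receptors with the coactivator PGC-1alpha.

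Among the members, genes of fatty acid synthesis had a positive median fold change in both knockdowns, while the oxidation median lay near 0. In further lists given below, other synthesis genes had medians of 0.65 with BAF250A and 0.55 with BRD9. Other oxidation genes had 0.28 with BAF250A and 0.27 with BRD9, so those lists stood less far apart. Of the members in BAF250A knockdown, 8 of 13 synthesis genes rose and 0 fell, against 4 of 22 oxidation genes that rose and 0 that fell. In BRD9 knockdown 3 of 13 synthesis genes rose and 0 fell, against 2 of 22 oxidation genes that rose and 0 that fell. The calls are the authors' Wald test with an adjusted p below 0.05, as deposited. That rule called 28.7% of the 16450 genes tested for BAF250A, 11.2% as higher and 17.5% as lower, and 14.4% of the 17198 genes tested for BRD9, 5.11% as higher and 9.33% as lower. Over all 39 members 13 were called with BAF250A (33.3%) and 6 with BRD9 (15.4%), so the overall rate of calls was near the background, and each call was of a higher value. Under Bonferroni adjustment, or with Wald scores scaled to their own spread over all genes (an empirical null), 1 member stayed called in each knockdown, Etfa.

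The median log2 fold change of the synthesis genes was 1.62 with BAF250A and 1.09 with BRD9, and that of the oxidation genes was 0.16 with BAF250A and 0.02 with BRD9, from the values in the authors' deposited tables. Over all genes tested the medians were -0.18 with BAF250A and -0.15 with BRD9. The 4 activation genes had medians of 0.52 with BAF250A and 0.89 with BRD9. Of the 13 synthesis genes 11 had a positive value in each knockdown, whereas 12 of the 22 oxidation genes did. Because the same scrambled libraries serve both comparisons, the values of the knockdowns stand side by side here and do not support each other. The difference between oxidation and synthesis as lists was described and not tested, since the genes of a list are not replicates.

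**Figure D1:**
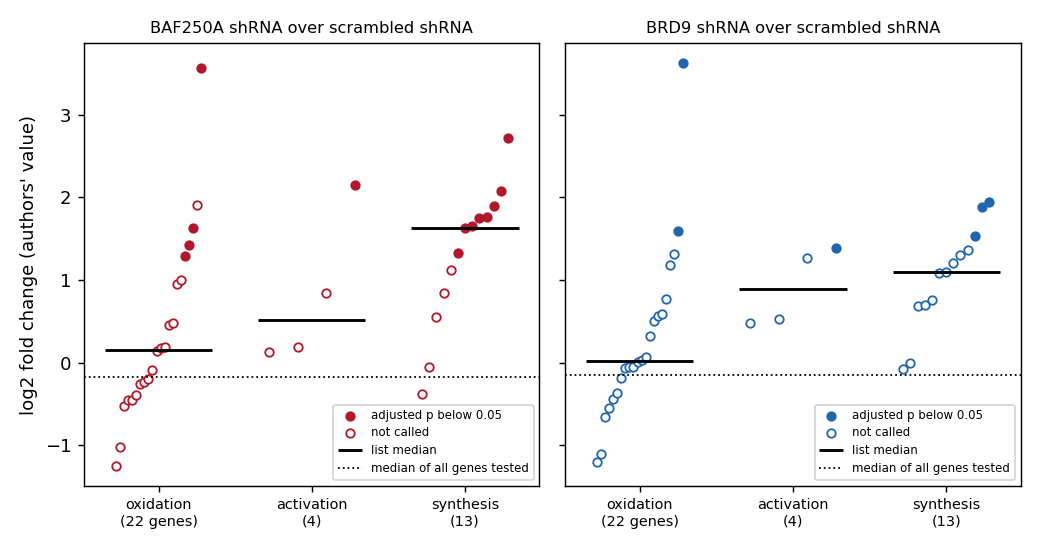
The vertical axis is the authors' log2 fold change of BAF250A knockdown (left) and BRD9 knockdown (right) over scrambled shRNA for each member, grouped by role and sorted within a role. Filled points passed the Wald test, black lines are list medians (synthesis 1.62 and 1.09, oxidation 0.16 and 0.02) and the dotted line is the median of all genes tested.

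The promoters of the members were read for 4 motifs tied to these regulators, on both strands, in RefSeq windows of 250 bases before to 50 after each start (GRCm38.p6, the build of mm10). Windows were found for 33 of the 39 members, 36 windows in all, and not for Acaa2, Cpt1b, Decr1, Fads1, Scd1 and Scd2. The NF-Y box CCAAT lay in windows of 7 of 10 synthesis genes (70.0%), 3 of 4 activation genes and 9 of 19 oxidation genes (47.4%), against 41.1% of 27025 genes. Called genes were found both with a box, such as Elovl5 and Etfa, and without one, such as Fads2 and Hadhb. For Acaca and Acacb the only window lay inside the gene, at 84195188 and 114165268 where the genes start at 84129635 and 114146321. Their upstream starts were therefore not read. Me1 held its box only in a window inside the gene, and its window at the upstream start held 0 matches. Mlycd, which was not called, had 3 boxes. The sterol element TCACNCCAC lay in 2 members, Acsl1 and Ehhadh, in 0 of 10 synthesis genes and in 1.44% of all genes. The oestrogen-related receptor element TCAAGGTCA and, as a separate motif, the direct repeat of AGGTCA with 1 base between lay in 0 members, and in 0.466% and 0.0481% of all genes. These are matches of letters, not shown sites, and no match says only that the letters are not in that window. The following windows are shown 5′ to 3′ on the strand of the gene, with matches in capitals (ATTGG is CCAAT on the other strand): Elovl5 at chr9:77917115-77917414 (plus strand) as a called synthesis gene with 2 boxes, Fasn at chr11:120824498-120824797 (minus strand) as the synthase with 3 boxes, 2 of which overlap, Acsl1 at chr8:46490716-46491015 (plus strand, its downstream start) with the sterol element GTGGGGTGA beside 2 boxes, and Etfa at chr9:55512194-55512493 (minus strand) as the member of largest change.
Elovl5: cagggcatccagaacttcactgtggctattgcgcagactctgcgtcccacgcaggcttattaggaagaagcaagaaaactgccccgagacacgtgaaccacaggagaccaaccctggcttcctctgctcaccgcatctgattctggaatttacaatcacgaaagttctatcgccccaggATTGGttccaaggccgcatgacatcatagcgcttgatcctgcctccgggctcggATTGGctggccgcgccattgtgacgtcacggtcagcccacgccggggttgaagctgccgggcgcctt
Fasn: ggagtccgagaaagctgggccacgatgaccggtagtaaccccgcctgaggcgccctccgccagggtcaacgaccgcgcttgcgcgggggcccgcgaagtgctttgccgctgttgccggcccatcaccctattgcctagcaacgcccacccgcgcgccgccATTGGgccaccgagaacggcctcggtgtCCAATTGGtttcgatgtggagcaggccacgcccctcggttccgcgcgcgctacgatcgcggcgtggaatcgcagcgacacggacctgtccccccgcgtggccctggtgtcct
Acsl1: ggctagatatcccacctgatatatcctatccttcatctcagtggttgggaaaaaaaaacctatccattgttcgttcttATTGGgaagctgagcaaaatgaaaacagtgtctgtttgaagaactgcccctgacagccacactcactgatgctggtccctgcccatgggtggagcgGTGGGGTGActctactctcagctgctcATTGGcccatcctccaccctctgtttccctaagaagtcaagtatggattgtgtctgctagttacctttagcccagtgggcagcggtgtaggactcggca
Etfa: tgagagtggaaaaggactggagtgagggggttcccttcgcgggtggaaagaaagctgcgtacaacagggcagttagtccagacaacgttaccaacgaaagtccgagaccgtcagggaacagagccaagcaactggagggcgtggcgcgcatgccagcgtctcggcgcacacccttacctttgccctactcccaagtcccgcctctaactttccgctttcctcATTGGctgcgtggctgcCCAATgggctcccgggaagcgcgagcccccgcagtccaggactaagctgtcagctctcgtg

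The precision of these tables limits what could be called. The smallest change called among all genes had a log2 size of 1.02 for BAF250A and 1.29 for BRD9 in the authors' deposited tables. There the median standard error (SE) was 0.48 for BAF250A and 0.54 for BRD9 among genes whose mean reached 100 normalized counts. The targeted genes were lower, with Arid1a at -1.95 (SE 0.48) in the first table and Brd9 at -1.60 (SE 0.54) in the second of the authors' deposited tables, and their signs were used to read positive values as higher in the knockdown. Total reads per library were not analysed here, but the steps of the lowest values gave size factors of 0.801 and 0.773 for the BAF250A libraries and 1.58 and 1.09 for the scrambled libraries of that table. In the BRD9 table they were 0.841 and 0.782 for the BRD9 libraries and 1.48 and 1.07 for the scrambled libraries. The scrambled libraries stood apart at the low end. A single read in 1 of the 4 libraries was all that 42 and 11 genes had for the BAF250A libraries, against 426 and 336 genes for the scrambled libraries of that table. For the BRD9 libraries these counts were 17 and 14, against 432 and 339 for the scrambled libraries. No library could be left out, because values per library were recovered for 3 members only, so the part of this difference in the results below was not tested.

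Markers of muscle were followed beside the enzymes. Of 12 genes of differentiated skeletal muscle 11 fell and 0 rose in BAF250A knockdown, with summed implied means of 171049 normalized counts in BAF250A knockdown and 673799 with scrambled shRNA. In BRD9 knockdown 2 rose and 0 fell, with summed means of 753730 in BRD9 knockdown and 702971 with scrambled shRNA. On the log2 scale the median of the muscle list was -3.52 with BAF250A, and it was -0.02 with BRD9. An implied mean is the group mean that follows from the authors' mean over 4 libraries and their fold change. Of 10 adipocyte markers 5 were tested in each table and 0 were called. Adipoq and Lep were listed at 0 in both tables. The adipocyte sums were 1692 with BAF250A and 1231 with scrambled shRNA in that table, and 1454 with BRD9 and 1274 with scrambled shRNA in its own. Most of each sum came from Cebpa and Lipe, whose log2 fold changes differed in sign. Cebpa was at 1.07 (SE 0.49) with BAF250A and 0.46 (SE 0.54) with BRD9. Lipe was at -0.84 (SE 0.51) with BAF250A and -0.37 (SE 0.54) with BRD9, by the authors' values. Of 5 hepatocyte markers 0 reached the test, with sums of at most 4.59 normalized counts in any group. These are bulk samples, in which fewer cells of a kind and less RNA per cell cannot be told apart. The part of the muscle markers in the enzyme values was not tested.

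The carnitine shuttle showed 0 called genes of 4 in either knockdown. Cpt1a, the entry enzyme of most tissues, had implied means of 3626 normalized counts with BAF250A and 4331 with scrambled shRNA, a log2 fold change of -0.26 (SE 0.42, adjusted p 0.696), per the authors' deposited table. Cpt1a had 4635 normalized counts with BRD9 against 4539 with scrambled shRNA, or 0.03 (SE 0.51, adjusted p 0.983), per the authors' deposited table. Cpt2, the inner membrane enzyme of the shuttle, had 2129 normalized counts with BAF250A against 2273 with scrambled shRNA, and 2079 with BRD9 against 2363 with scrambled shRNA. Cpt2 stood at -0.09 (SE 0.44) with BAF250A and -0.19 (SE 0.48) with BRD9 in the authors' deposited tables. The carrier gene Slc25a20 stood at -0.45 (SE 0.47) with BAF250A and -0.07 (SE 0.51) with BRD9 there. The 95% interval of Cpt1a ran from -1.08 to 0.56 with BAF250A and from -0.98 to 1.04 with BRD9.

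Cpt1b, which encodes the muscle form of the entry enzyme, was nearly absent from the counts of every library. Its reads could be resolved exactly and were 3 and 2 in the BAF250A libraries, 1 and 3 in the BRD9 libraries, and 11 and 3 in the scrambled libraries. After scaling these are 3.74 and 2.59 normalized counts with BAF250A against 6.98 and 2.74 with scrambled shRNA, and the groups overlapped. In the BRD9 table they are 1.19 and 3.83 with BRD9 against 7.45 and 2.81 with scrambled shRNA, again with overlap. Per kb of exon, the implied mean of Cpt1a was 840 normalized counts with BAF250A, 1074 with BRD9 and 1051 with scrambled shRNA in the BRD9 table, whereas that of Cpt1b was 1.17 with BAF250A, 1.03 with BRD9 and 1.61 with scrambled shRNA. The level of Cpt1b is uncertain, because 80.4% of the 50-base words of Cpt1b also occur in Gm44502, a read-through transcript of Chkb and Cpt1b that was listed at 0 in both of the authors' deposited tables. How shared reads were counted was not given in the sources used here.

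Among the acyl-CoA dehydrogenases, which carry out the first step of the spiral for chains of different length, Acadm alone was called. Acadm, the medium-chain enzyme (gene ID 11364 in the tables, chr3:153922353-153944643 of mm10 in GENCODE), had implied means of 3161 normalized counts with BAF250A and 1180 with scrambled shRNA. It rose by 1.42 (SE 0.43, adjusted p 0.00589), per the authors' deposited table. Acadm had 2822 normalized counts with BRD9 against 1243 with scrambled shRNA, or 1.18 (SE 0.49, adjusted p 0.0884), which did not pass in the authors' deposited table. The long-chain enzyme gene Acadl was at -0.52 (SE 0.44) with BAF250A and 0.07 (SE 0.49) with BRD9 in the authors' deposited tables. The short-chain enzyme gene Acads was at -0.23 (SE 0.49) with BAF250A and -0.44 (SE 0.53) with BRD9, and the very-long-chain enzyme gene Acadvl at 0.14 (SE 0.48) with BAF250A and 0.00 (SE 0.52) with BRD9, in the same tables. Of the words of Acadvl 23.5% lie antisense to Dvl2, and the use of strand in counting was not given in the sources used here.

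The mitochondrial trifunctional protein joins 3 steps in 1 complex of alpha chains from Hadha and beta chains from Hadhb. Of its genes Hadhb alone was called, and the difference between Hadhb and Hadha was not tested. Hadhb (gene 231086, chr5:30155253-30184593 of mm10) had implied means of 2728 normalized counts with BAF250A and 883 with scrambled shRNA, and it rose by 1.63 (SE 0.47, adjusted p 0.00338), per the authors' deposited table. Hadhb had 2794 normalized counts with BRD9 against 928 with scrambled shRNA, and it rose by 1.59 (SE 0.52, adjusted p 0.0186), per the authors' deposited table. Hadha, its neighbour on chromosome 5, stood at 0.47 (SE 0.44) with BAF250A and 0.32 (SE 0.48) with BRD9 and passed neither test in the authors' deposited tables. The size for Hadhb is uncertain, because 57.5% of its words are shared with other genes, chiefly the pseudogene Gm13910, which has no entry in these tables by symbol. Per kb of exon Hadhb made up 24.7% of the Hadhb and Hadha levels with BAF250A, 26.4% with BRD9 and 12.8% with scrambled shRNA. Echs1, the short-chain enoyl-CoA hydratase (gene 93747, chr7:140105710-140116421 of mm10), had 4228 normalized counts with BAF250A against 1735 with scrambled shRNA. It rose by 1.29 (SE 0.46, adjusted p 0.0213) with BAF250A and stood at 0.76 (SE 0.52, adjusted p 0.388) with BRD9 in the authors' deposited tables.

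Hadh, the short-chain 3-hydroxyacyl-CoA dehydrogenase, was at 0.45 (SE 0.46) with BAF250A and -0.05 (SE 0.50) with BRD9 in the authors' deposited tables. The mitochondrial thiolase gene Acaa2 was at -0.40 (SE 0.51) with BAF250A and -0.37 (SE 0.55) with BRD9 there. The peroxisomal thiolase gene Acaa1a was at 0.19 (SE 0.50) with BAF250A and -0.05 (SE 0.54) with BRD9, while its near copy Acaa1b, which holds 26.7% of the words of Acaa1a, fell by 1.66 (SE 0.55) with BAF250A and 2.21 (SE 0.59) with BRD9, per the authors' deposited tables. Ehhadh, the peroxisomal bifunctional enzyme, was a gene of few reads, with 10 and 8 in the BAF250A libraries, 10 and 4 in the BRD9 libraries and 4 and 2 in the scrambled libraries. Scaled, these were 12.5 and 10.3 normalized counts with BAF250A against 2.54 and 1.83 with scrambled shRNA, so that both BAF250A libraries lay above both scrambled libraries. In the BRD9 table they were 11.9 and 5.11 with BRD9 against 2.71 and 1.87 with scrambled shRNA, and the BRD9 libraries were the higher ones. Its fold changes of 1.90 (SE 1.22) with BAF250A and 1.31 (SE 1.22) with BRD9 passed neither Wald test in the authors' deposited tables. With 2 libraries against 2, an exact permutation test cannot go below a two-sided p of 0.333.

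The auxiliary enzymes, which bring the double bonds of unsaturated acids into the spiral, had 0 called genes of 3 in either knockdown. Decr1, the dienoyl-CoA reductase, was at 1.00 (SE 0.44, adjusted p 0.0716) with BAF250A and 0.57 (SE 0.50, adjusted p 0.532) with BRD9 in the authors' deposited tables. The isomerase gene Eci2 was at 0.95 (SE 0.44, adjusted p 0.0921) with BAF250A and 0.51 (SE 0.49) with BRD9, and Eci1 at -0.20 (SE 0.51) with BAF250A and -0.55 (SE 0.56) with BRD9, in the same tables. Eci3, a gene that holds 5.31% of the words of Eci2, fell by 1.65 (SE 0.61) with BAF250A and 2.21 (SE 0.66) with BRD9 in the authors' deposited tables.

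Etfa, the alpha chain of the electron transfer flavoprotein, had the largest change of the 39 genes in both knockdowns. Etfa (gene 110842, chr9:55454436-55512243 of mm10) had implied means of 3039 normalized counts with BAF250A and 258 with scrambled shRNA, a rise of 3.56 (SE 0.46, adjusted p 1.72e-13), per the authors' deposited table. Etfa had 3449 normalized counts with BRD9 against 281 with scrambled shRNA, a rise of 3.62 (SE 0.51, adjusted p 3.44e-11), per the authors' deposited table. Its dimer partner Etfb, the beta chain, stood at -1.02 (SE 0.49, adjusted p 0.104) with BAF250A and -1.11 (SE 0.54, adjusted p 0.182) with BRD9 in the authors' deposited tables. Etfdh, which passes the electrons on to ubiquinone, stood at 0.17 (SE 0.49) with BAF250A and 0.59 (SE 0.54) with BRD9 there. Per kb of exon, Etfa reached 2183 normalized counts with BAF250A, 2477 with BRD9 and 185 with scrambled shRNA in the BAF250A table, while Etfb reached 3518 with BAF250A, 3422 with BRD9 and 7145 with scrambled shRNA. Etfa thus made up 38.3% of the Etfa and Etfb levels with BAF250A, 42.0% with BRD9 and 2.53% with scrambled shRNA. Of the words of Etfa 4.02% are shared with another gene, and of those of Etfb 57.7% are shared with Gm45233.

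Mlycd, the decarboxylase that removes malonyl-CoA, had the lowest log2 fold change of the members in each knockdown, and neither was called. It had implied means of 982 normalized counts with BAF250A and 2330 with scrambled shRNA, at -1.25 (SE 0.52, adjusted p 0.0548), per the authors' deposited table. Mlycd had 1043 normalized counts with BRD9 against 2404 with scrambled shRNA, at -1.20 (SE 0.55, adjusted p 0.143), per the authors' deposited table. When fold changes were centred on the median of genes with a mean of 100 or more, a shift of 0.03, Mlycd passed with BAF250A at -1.28 and an adjusted Wald p of 0.0473, while its other alternatives ran from 0.0548 to 1.

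**Figure D2:**
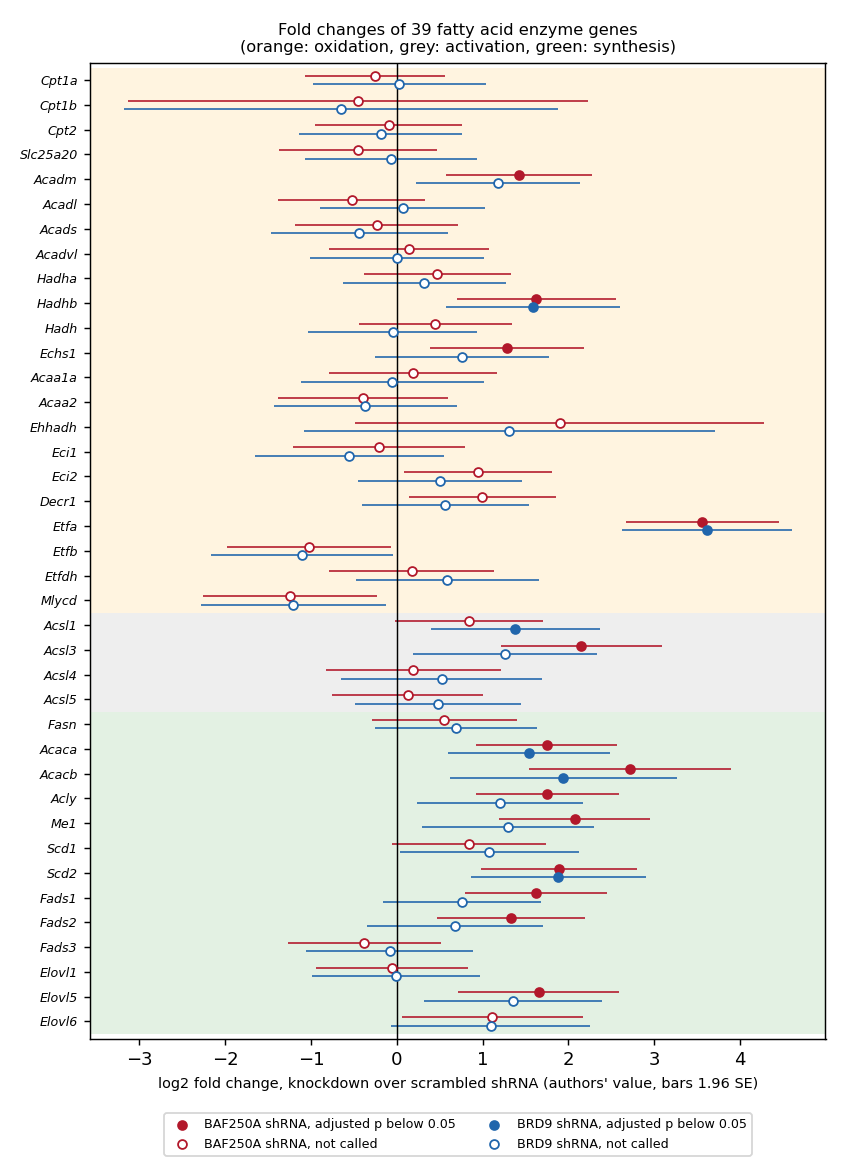
Points are the authors' log2 fold changes of BAF250A and BRD9 knockdown over scrambled shRNA for the 39 genes, with bars as 95% intervals, and filled points passed the Wald test. Etfa lies farthest to the right at 3.56 and 3.62, Mlycd farthest to the left at -1.25 and -1.20, and 11 of the 13 synthesis genes lie above 0 in each knockdown.

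Of the activation genes, Acsl3 rose with BAF250A and Acsl1 with BRD9. Acsl3, a long-chain acyl-CoA synthetase of the endoplasmic reticulum and lipid droplets (gene 74205, chr1:78657825-78707743 of mm10), had implied means of 11362 normalized counts with BAF250A and 2559 with scrambled shRNA. It rose by 2.15 (SE 0.48, adjusted p 6.95e-05) with BAF250A in the authors' deposited table. Acsl3 had 6442 normalized counts with BRD9 against 2687 with scrambled shRNA, at 1.26 (SE 0.55, adjusted p 0.116), per the authors' deposited table. Acsl1, the main synthetase of muscle and fat (gene 14081, chr8:46471037-46536051 of mm10), had 1538 normalized counts with BRD9 against 590 with scrambled shRNA, and it rose by 1.38 (SE 0.50, adjusted p 0.0430), per the authors' deposited table. That call was lost when the Wald p was adjusted over all genes with a p-value (0.0519) and when centred (0.0531), and the adjusted p ranged from 0.0430 to 1 over its alternatives. With BAF250A, Acsl1 had 989 normalized counts against 553 with scrambled shRNA, at 0.84 (SE 0.44, adjusted p 0.145), per the authors' deposited table. Acsl4, which prefers arachidonate, was at 0.19 (SE 0.52) with BAF250A and 0.53 (SE 0.60) with BRD9, and Acsl5 at 0.13 (SE 0.45) with BAF250A and 0.48 (SE 0.49) with BRD9, per the authors' deposited tables.

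In the supply of precursors and the building of chains, 4 of 5 genes rose with BAF250A and 2 of 5 with BRD9. Acly, ATP citrate lyase (gene 104112, chr11:100476352-100528000 of mm10), had implied means of 14573 normalized counts with BAF250A and 4313 with scrambled shRNA, and it rose by 1.76 (SE 0.42, adjusted p 2.91e-04), per the authors' deposited table. Acly had 10417 normalized counts with BRD9 against 4531 with scrambled shRNA, at 1.20 (SE 0.49, adjusted p 0.0887), which did not pass in the authors' deposited table. Me1, the cytosolic malic enzyme that supplies NADPH (gene 17436, chr9:86581363-86695914 of mm10), had 6368 normalized counts with BAF250A against 1514 with scrambled shRNA. It rose by 2.07 (SE 0.45, adjusted p 3.98e-05) with BAF250A and stood at 1.30 (SE 0.51, adjusted p 0.0696) with BRD9 in the authors' deposited tables. Of the words of Me1 24.6% are shared with other genes, chiefly the pseudogene Gm7049, and 18.5% lie antisense to Gm48795.

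Both acetyl-CoA carboxylase genes rose in both knockdowns. Acaca, the cytosolic form of fat synthesis (gene 107476, chr11:84129635-84401651 of mm10), had implied means of 5674 normalized counts with BAF250A and 1690 with scrambled shRNA, and it rose by 1.75 (SE 0.42, adjusted p 2.73e-04), per the authors' deposited table. Acaca had 5177 normalized counts with BRD9 against 1785 with scrambled shRNA, and it rose by 1.54 (SE 0.48, adjusted p 0.0131), per the authors' deposited table. A pseudogene, Gm5182, holds 49.1% of the words of Acaca. Acacb, the mitochondrial form that restrains carnitine entry in muscle (gene 100705, chr5:114146321-114250761 of mm10), was low enough for its reads to be resolved. It had 159 and 194 reads in the BAF250A libraries, 146 and 82 in the BRD9 libraries, and 27 and 51 in the scrambled libraries. Scaled, these were 198 and 251 normalized counts with BAF250A against 17.1 and 46.6 with scrambled shRNA, with no overlap. In the BRD9 table they were 174 and 105 with BRD9 against 18.3 and 47.7 with scrambled shRNA, again with no overlap. The authors' deposited tables give 2.72 (SE 0.60, adjusted p 5.80e-05) with BAF250A and 1.94 (SE 0.68, adjusted p 0.0316) with BRD9. The log2 ratio of the recovered means was 2.82 with BAF250A and 2.08 with BRD9. In all 3 recovered genes the ratio of means was larger in size than the deposited fold change. For Ehhadh it was 2.39 with BAF250A and 1.89 with BRD9, and for Cpt1b -0.62 with BAF250A and -1.03 with BRD9, where the authors' deposited tables give -0.46 and -0.65 for Cpt1b. Implied means of genes with few reads are therefore approximate.

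**Figure D3:**
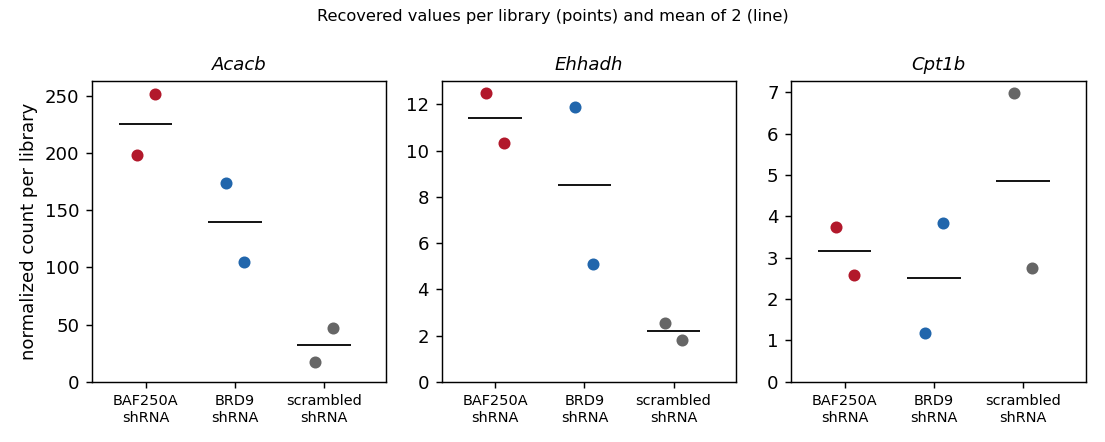
The vertical axis is the normalized count in each library for the 3 members whose whole reads could be recovered, with the mean of 2 libraries as a line and scrambled values scaled as in the BAF250A table. Acacb lies at 198 and 251 with BAF250A, 174 and 105 with BRD9 and 17.1 and 46.6 with scrambled shRNA, whereas Cpt1b is at most 6.98 in any library.

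Fasn, fatty acid synthase itself, did not pass either test. It had implied means of 24037 normalized counts with BAF250A and 16358 with scrambled shRNA, at 0.56 (SE 0.43, adjusted p 0.355), per the authors' deposited table. Fasn had 27663 normalized counts with BRD9 against 17139 with scrambled shRNA, at 0.69 (SE 0.48, adjusted p 0.402), per the authors' deposited table. Acaca and Mlycd encode enzymes that make and remove malonyl-CoA. Per kb of exon, Acaca made up 56.4% of the Acaca and Mlycd levels with BAF250A, 52.6% with BRD9 and 14.0% with scrambled shRNA in the BAF250A table. These shares come from implied means, have no replicate error and were not tested.

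Among the desaturases, the delta-9 enzyme gene Scd2 rose in both knockdowns and was the most abundant member per kb with BAF250A and with BRD9. Scd2 (gene 20250, chr19:44293676-44306864 of mm10) had implied means of 76475 normalized counts with BAF250A and 20561 with scrambled shRNA, and it rose by 1.90 (SE 0.46, adjusted p 3.73e-04), per the authors' deposited table. Scd2 had 81191 normalized counts with BRD9 against 22002 with scrambled shRNA, and it rose by 1.88 (SE 0.52, adjusted p 0.00333), per the authors' deposited table. Scd1, the major form of liver and fat, had 20600 normalized counts with BAF250A against 11481 with scrambled shRNA, and 25834 with BRD9 against 12229 with scrambled shRNA. Scd1 stood at 0.84 (SE 0.46, adjusted p 0.159) with BAF250A and 1.08 (SE 0.53, adjusted p 0.185) with BRD9 in the authors' deposited tables. Per kb of exon Scd2 made up 76.7% of the Scd1 and Scd2 levels with BAF250A, 73.6% with BRD9 and 61.3% with scrambled shRNA. The low copies Scd3 and Scd4 had the opposite sign, and each passed in 1 knockdown. Scd4 was at -2.86 (SE 0.73, adjusted p 6.64e-04) with BAF250A and at -1.77 (SE 0.71, adjusted p 0.0783) with BRD9 in the authors' deposited tables. Scd3 was at -1.69 (SE 0.69, adjusted p 0.0501) with BAF250A and at -2.09 (SE 0.76, adjusted p 0.0424) with BRD9 in the authors' deposited tables.

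Fads1 and Fads2, the delta-5 and delta-6 desaturases of polyunsaturated acids, rose with BAF250A, and Fads3 of the same cluster on chromosome 19 did not pass. Fads1 (gene 76267, chr19:10182877-10196874 of mm10) had implied means of 17795 normalized counts with BAF250A and 5772 with scrambled shRNA, and it rose by 1.62 (SE 0.42, adjusted p 8.19e-04), per the authors' deposited table. Fads2 (gene 56473, chr19:10062765-10101503 of mm10) had 13684 normalized counts with BAF250A against 5437 with scrambled shRNA, and it rose by 1.33 (SE 0.44, adjusted p 0.0115), per the authors' deposited table. With BRD9 Fads1 was at 0.76 (SE 0.47, adjusted p 0.330) and Fads2 at 0.68 (SE 0.52, adjusted p 0.461), per the authors' deposited table. Fads3 was at -0.38 (SE 0.45) with BAF250A and -0.08 (SE 0.50) with BRD9 in the authors' deposited tables.

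Of the elongases, Elovl5 of polyunsaturated acids rose with BAF250A. Elovl5 (gene 68801, chr9:77917365-77984519 of mm10) had implied means of 5053 normalized counts with BAF250A and 1606 with scrambled shRNA, and it rose by 1.65 (SE 0.48, adjusted p 0.00346), per the authors' deposited table. Elovl5 had 4365 normalized counts with BRD9 against 1701 with scrambled shRNA, at 1.36 (SE 0.53, adjusted p 0.0658), per the authors' deposited table. Elovl6, which extends palmitate, was at 1.12 (SE 0.54, adjusted p 0.107) with BAF250A and 1.09 (SE 0.59, adjusted p 0.245) with BRD9, and Elovl1 of very long chains at -0.06 (SE 0.45) with BAF250A and -0.01 (SE 0.50) with BRD9, per the authors' deposited tables.

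**Figure D4:**
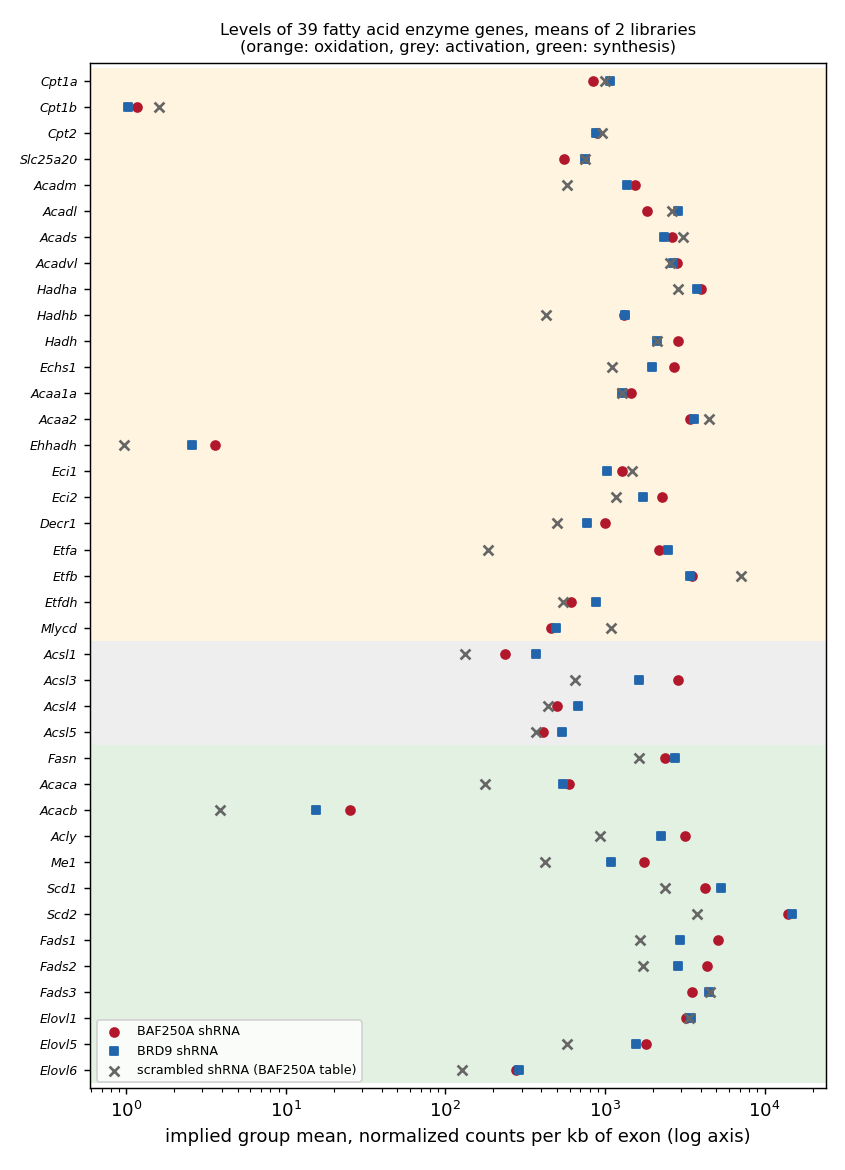
The horizontal axis is the implied group mean in normalized counts per kb of exon on a log scale, with circles for BAF250A, squares for BRD9 and crosses for scrambled shRNA (BAF250A table). Scd2 is highest in the knockdowns at 14019 and 14884, Etfb is highest with scrambled shRNA at 7145, and Cpt1b, Ehhadh and Acacb form the low end at 25.3 or less.

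**Figure D5:**
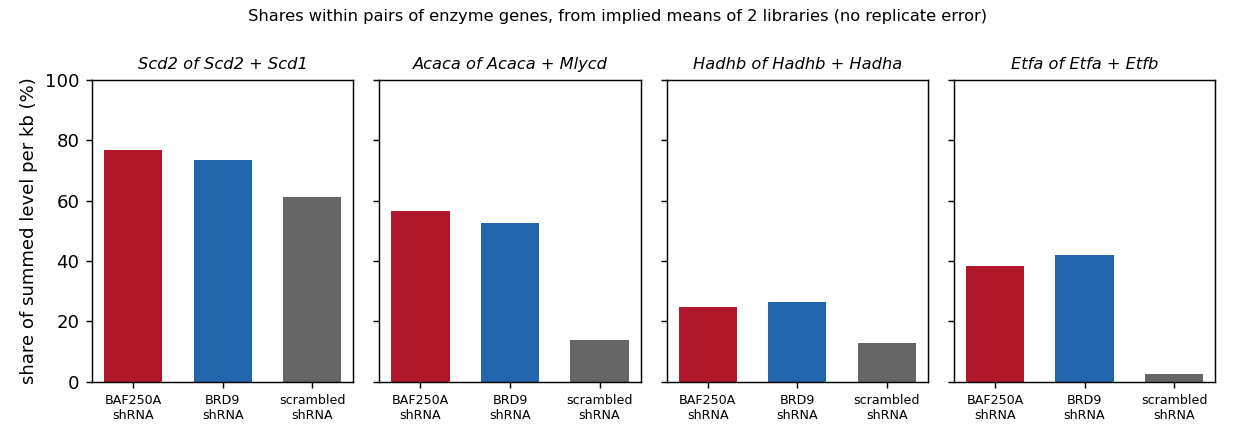
Bars give the share of the first gene in the summed level per kb of each pair, from implied means of 2 libraries and with no replicate error. The share of Etfa is 38.3% with BAF250A, 42.0% with BRD9 and 2.53% with scrambled shRNA, and that of Scd2 is 76.7%, 73.6% and 61.3%.

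Between the knockdowns, 0 of the 39 members were called by a z test of the difference, adjusted after Benjamini and Hochberg, which called 2.54% of 16311 genes, 0.552% as higher and 1.99% as lower with BAF250A. At an unadjusted p below 0.05 the count was also 0, and with a smaller variance for the shared controls it was again 0 after adjustment. The differences, BAF250A minus BRD9, ran from -0.59 for Acadl to 0.89 for Acsl3 with a median of 0.14. Acsl3 differed by 0.89 with a 95% interval from -0.54 to 2.32, Fads1 by 0.86 with -0.38 to 2.10, and Scd2 by 0.01 with -1.35 to 1.38. Intervals this wide do not show that the knockdowns act alike on these genes.

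The rest of the pathway was read from 3 further lists. Of 28 other oxidation genes 7 rose and 3 fell with BAF250A, and 3 rose and 2 fell with BRD9, at medians of 0.28 with BAF250A and 0.27 with BRD9. The shares that rose were 25.0% with BAF250A and 10.7% with BRD9, beside 11.2% and 5.11% of all genes tested. The shares that fell were 10.7% with BAF250A and 7.14% with BRD9, beside 17.5% and 9.33% of all genes tested. The acyl-CoA thioesterase gene Acot1 rose by 3.68 (SE 0.46) with BAF250A and stood at 1.42 (SE 0.66) with BRD9 in the authors' deposited tables. Phyh, which starts the peroxisomal alpha-oxidation of phytanate, rose by 3.11 (SE 0.51) with BAF250A and 2.45 (SE 0.58) with BRD9, and Hacl1, the lyase of the same route, rose by 2.46 (SE 0.47) with BAF250A and 1.78 (SE 0.56) with BRD9, per the authors' deposited tables. The fatty acid transporter gene Slc27a1 fell by 1.66 (SE 0.45) with BAF250A and 1.38 (SE 0.51, adjusted p 0.0490) with BRD9 there. The BRD9 call of Slc27a1 was near the threshold. Its unadjusted Wald p of 0.00704 was above the 0.00596 of Acsl1, whose call was lost when adjusted over all genes with a p-value. Acsl6, another synthetase, fell by 2.97 (SE 0.58) with BAF250A and stood at 0.34 (SE 0.55) with BRD9 in the authors' deposited tables. Of 25 other synthesis genes 23 were tested, of which 6 rose and 2 fell with BAF250A, and 3 rose and 1 fell with BRD9, at medians of 0.65 with BAF250A and 0.55 with BRD9. The share that rose with BAF250A was 26.1%, beside 11.2% of all genes tested, and with BRD9 3 of 23 rose, beside 5.11%. Falls made up 8.70% with BAF250A and 4.35% with BRD9, beside 17.5% and 9.33% of all genes tested. Hacd1, a dehydratase of elongation known from muscle, rose by 2.08 (SE 0.43) with BAF250A and 3.21 (SE 0.48) with BRD9, Hacd2 of the same family by 2.26 (SE 0.43) with BAF250A and 1.51 (SE 0.49) with BRD9, and the NADPH source Idh1 by 1.87 (SE 0.48) with BAF250A and 1.72 (SE 0.58) with BRD9, per the authors' deposited tables.

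Regulators of the pathways were called at a rate near that of all genes. Of 32 regulators 30 were tested, of which 2 rose and 7 fell with BAF250A, and 2 rose and 2 fell with BRD9, at medians of -0.17 with BAF250A and -0.02 with BRD9. With BAF250A 6.67% rose and 23.3% fell, where 11.2% and 17.5% of all genes tested were called higher and lower. With BRD9 6.67% rose and 6.67% fell, where 5.11% and 9.33% of all genes tested were called higher and lower. Ppargc1a, which encodes PGC-1alpha, had implied means of 29.6 normalized counts with BAF250A against 339 with scrambled shRNA, and 56.9 with BRD9 against 353 with scrambled shRNA. It fell by 3.51 (SE 0.62, adjusted p 2.32e-07) with BAF250A and 2.63 (SE 0.74, adjusted p 0.00391) with BRD9, per the authors' deposited tables. Esrra, the oestrogen-related receptor alpha, fell by 1.65 (SE 0.49, adjusted p 0.00442) with BAF250A and 1.44 (SE 0.53, adjusted p 0.0474) with BRD9 there. The BRD9 call of Esrra was near the threshold. Its unadjusted Wald p of 0.00675 was above the 0.00596 of Acsl1, whose call was lost when adjusted over all genes with a p-value. Srebf2, the regulator of sterol synthesis, rose by 1.19 (SE 0.43) with BAF250A and 1.36 (SE 0.48) with BRD9, and Insig1, which retains these factors, by 2.60 (SE 0.44) with BAF250A and 2.84 (SE 0.50) with BRD9, per the authors' deposited tables. Srebf1, the main regulator of fatty acid synthesis and named after its values were seen, was at 0.97 (SE 0.45, adjusted p 0.0872) with BAF250A and 1.31 (SE 0.50, adjusted p 0.0564) with BRD9 and passed neither test in the authors' deposited tables. Prkag3, a muscle subunit of AMP kinase, fell by 2.68 (SE 0.49) with BAF250A and stood at 1.16 (SE 0.54) with BRD9 in the authors' deposited tables. The nuclear receptor gene Nr1h3 fell by 2.67 (SE 0.76) with BAF250A and stood at -1.65 (SE 0.74, adjusted p 0.129) with BRD9 in the authors' deposited tables. Esrrg, another oestrogen-related receptor and a gene of few reads, fell by 4.17 (SE 1.42) with BAF250A and stood at -0.74 (SE 1.07, adjusted p 0.744) with BRD9 in the authors' deposited tables.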

How the data were processed

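RNA was sequenced from 6 libraries in 3 groups of 2, and the labels call them biological duplicates without saying how cultures were separated, so p-values measure only the spread between these samples. Among the tools in the submitters' processing notes are DESeq2, RSEM, Bowtie, StringTie and HISAT, and the build there is mm10; what each did is not stated. The deposited mean is a signal per the file headers, averaged over 4 libraries of counts divided by size factors. The log2 fold change and its SE are on a log2 scale, per the file headers. The Wald score is their ratio as deposited, and the authors give its p-value and an adjusted p-value over all genes tested, with DESeq2. No count model was fitted here, since values per library were not analysed apart from those recovered below.

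Members, lists and roles were chosen with earlier results of these data known. All 39 members were named, with full values for those called and for the main enzymes, and the 3 further lists by counts and at most the 6 called genes of largest size per list and comparison. All members passed the authors' filter on low values. Implied means assume that the fold change is a ratio of group means, which is approximate for genes with few reads. The difference z test divides the difference of the fold changes by the root of the summed squared SEs, and takes a two-sided p from the normal distribution, adjusted after Benjamini and Hochberg. It is conservative because the scrambled libraries are shared, and it was tested on simulated data. The nonzero differences simulated were all larger than those seen among the members, so the power at such sizes was not measured. Reads were recovered for members with a mean below 150 as the single set of whole reads that gives the means of both tables with the same scrambled reads; which library is A or B is unknown. The group of each library was read from the sign of the fold change of genes with reads in that library alone. Shared sequence is the share of 50-base words of GENCODE transcripts found in another gene. Exon lengths are unions of GENCODE basic exons. A BAF180 shRNA named in the protocol is not analysed here. Python 3.11.15, pandas 2.3.3 and scipy 1.17.1 were used.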

Additional observations from a re-analysis of the deposited data

Results flagged for a closer look

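2 genes of the further lists, and 0 of the 39 members, were marked because their fold changes differed between the knockdowns. The test was a z test of that difference, adjusted after Benjamini and Hochberg, which called 2.54% of 16311 genes. The further lists had 28, 23 and 30 genes tested, so 2 genes are near that share and are no result about the lists. Acsl6, an acyl-CoA synthetase gene, differed by -3.31 (BAF250A minus BRD9, adjusted p 0.00282), with implied means of 23.2 normalized counts with BAF250A and 244 with BRD9, against 182 and 192 with scrambled shRNA in the 2 tables. Prkag3, a muscle subunit gene of AMP kinase, differed by -3.84 (adjusted p 2.70e-05), with 129 normalized counts with BAF250A and 1981 with BRD9, against 829 and 888 with scrambled shRNA. Markers of differentiated muscle were lower with BAF250A in the same libraries (11 of 12 fell), and their part in these values was not tested.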

How the results depend on the processing

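Calls of members depended on how strict the test was. With BAF250A 13 members were called, 11 at an adjusted p below 0.01, 13 when adjusted over all genes with a p-value or over genes with a mean of 100 or more, and 14 after centring, where Mlycd was added as lower. Bonferroni adjustment left 1 and an empirical null, which divides the centred Wald scores by their own spread, left 1, in each case Etfa. With BRD9 6 members were called, 2 at an adjusted p below 0.01 (Etfa and Scd2), 1 under Bonferroni adjustment and 1 under the empirical null (Etfa in both), and 5 in each of the other alternatives. Acsl1 lost its BRD9 call in 2 of those 3 alternatives and Acacb, at a mean below 100, was not tested in the other. Over all genes the empirical null called 693 in place of 4729 with BAF250A and 873 in place of 2483 with BRD9, and Bonferroni adjustment 1565 and 940. The difference z test called 414 genes, 1231 with 0.5 of the variance and 271 among genes with a mean of 100 or more in both tables, and 0 members in each of its alternatives. Medians of oxidation and synthesis moved by less than the median SE of their genes under each alternative. That SE belongs to a single gene and does not measure the error of a median. With little shared sequence, synthesis was 1.33 with BAF250A, where the main value was 1.62, and 1.08 with BRD9. Oxidation was 0.16 with BAF250A and 0.05 with BRD9 there. After centring, the oxidation median with BRD9 was -0.03, and the BRD9 values of Cpt1a and Acadvl turned to -0.015 and -0.042. No paired analysis was possible because the tables hold comparisons and not values per library, and leaving out replicates was not run for the same reason.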
